A study of Mus musculus with 12 samples.

Results

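The apolipoprotein genes Apoa1, Apoa2, Apoa4, Apoa5, Apob, Apoc1, Apoc2, Apoc3, Apoe and Apom were taken by their symbols, which gave 10 of the 22276 symbols quantified. Of these, 9 had values in all 12 libraries, and Apoc2 had none in any of them. Apolipoproteins are the protein components of plasma lipoproteins, the particles that carry triglyceride and cholesterol through the blood. Most are secreted by hepatocytes, where they help to assemble very low density lipoprotein (VLDL) and high density lipoprotein (HDL), act as ligands for lipoprotein receptors and regulate the lipases that empty the particles. Apoe and Apoc1 are also made outside liver, by macrophages and adipocytes among other cells.

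The libraries were RNA-seq of white fat (white adipose tissue, WAT), brown fat (brown adipose tissue, BAT), liver and quadriceps muscle from male C57BL/6J mice aged 17 weeks. NCD-veh mice ate normal chow diet (NCD) and received vehicle (veh), HFD-veh mice ate high-fat diet (HFD) from 8 weeks of age and received vehicle, and HFD-ncls mice ate HFD and received narciclasine (ncls), a plant alkaloid, by weekly oral gavage for 7 weeks from 10 weeks of age. There was 1 library for each organ and group, and the number of animals behind a library is not given in the sources used here, so no spread, test or p-value can be attached to any difference below. Values are FPKM (fragments scaled to transcript length and to the mapped fragments of the library), a level per length that allows genes to be compared within a library, and ratios are log2 of FPKM + 0.1 in one library over another. A ratio past 1.4-fold, or past 2-fold where stated, among genes at 1 FPKM or more in at least 1 of the 2 libraries, is called higher or lower in a count, and counts of members stand beside the percent of all such genes past the same fold. Where 3 values of a gene are given for an organ, their order is NCD-veh, then HFD-veh, then HFD-ncls. In whole tissue, fewer cells of a type and less RNA per cell cannot be told apart.

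Each organ held its own markers, with the list of hepatocyte genes at a summed 22049 to 28453 FPKM in liver and at most 354 FPKM elsewhere, in HFD-veh muscle. The 8 adipocyte genes summed to 18098 to 28059 FPKM in WAT and the 5 brown adipocyte genes to 3845 to 4255 FPKM in BAT. The 8 skeletal muscle genes summed to 1849, 741 and 107 FPKM in the BAT libraries. In liver they summed to 2.14, 57.4 and 3.12 FPKM. Depth relative to HFD-veh muscle, read from the steps between low values, ranged from 0.708 in HFD-ncls WAT to 1.

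All 9 measured apolipoprotein mRNAs were at 133 FPKM or more in every liver library. They made up 11.02%, 12.05% and 12.71% of the summed liver FPKM of the groups. Apoa2, a structural protein of HDL, was the most abundant of all genes with a liver value in each of the 3 liver libraries, with 15430, 16203 and 16882 FPKM. Apoe, a ligand through which cells take up lipoprotein remnants, followed in second place in each, with 13714, 14289 and 14408 FPKM. Apoa1, the main protein of HDL and an activator of the cholesterol-esterifying enzyme Lcat, and Apoc1, an exchangeable protein that hinders remnant uptake, shared the next places. Alb had no value in liver and so has no place in this ranking or in the summed liver FPKM. The percents above would be lower with Alb in the sum.

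**Figure D1:**
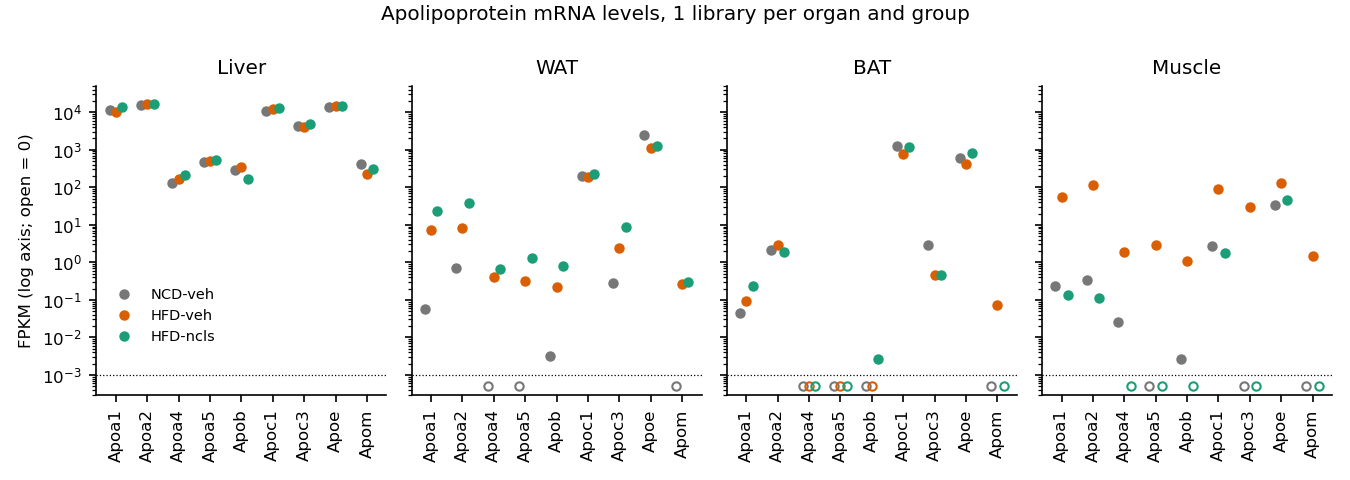
FPKM of each measured apolipoprotein gene (x axis) in each of the 12 libraries on a log axis, 1 panel per organ, with points coloured by group and open points below the dotted line for a listed value of 0. The liver points lie together between 133 and 16882 FPKM, Apoe and Apoc1 stay high in WAT and BAT, and all 9 genes are highest among the muscle libraries in HFD-veh.

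In the HFD-veh liver against the NCD-veh liver, none of the 9 measured members was over 1.4-fold higher, against 13.3% of all genes, and Apom alone was over 1.4-fold lower, against 10.5% of all genes. Apom carries sphingosine-1-phosphate on HDL. Its level was 407, 222 and 301 FPKM. The HFD-veh library was thus the lowest of the 3, with a log2 ratio to NCD-veh of -0.87. The HFD-ncls library lay between the others, with log2 ratios of 0.44 to HFD-veh and -0.43 to NCD-veh, both within 1.4-fold. The second passed 1.4-fold after rescaling of the liver libraries to a common median ratio (-0.49). The remaining 8 members differed between the vehicle libraries by log2 ratios from -0.19 for Apoa1 to 0.34 for Apoa4. The median of the 9 was 0.06, beside 0.04 over all genes tested.

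The NCD-veh liver library also held the acute-phase apolipoproteins Saa1 and Saa2 at 7071 and 6590 FPKM, against 132 and 53.7 FPKM in HFD-veh. Of the 22 hepatocyte list genes with a liver value, 3 were higher and 12 lower in HFD-veh than in NCD-veh liver, with a median log2 ratio of -0.52. Their part in the diet ratios was not tested.

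In the HFD-ncls liver against the HFD-veh liver, Apob was the only member past 1.4-fold, and it was also past 2-fold. Apob encodes the non-exchangeable protein on which VLDL and, in intestine, chylomicrons are built. Its level was 287, 357 and 167 FPKM. The HFD-ncls library was the lowest, 2.15-fold below HFD-veh (log2 ratio -1.10) and 1.72-fold below NCD-veh (log2 ratio -0.79), while the vehicle libraries differed by 0.32. Among all genes, 6.88% were over 1.4-fold higher and 8.07% lower in this comparison, and 1% were over 2-fold higher and 1.31% lower. Apob stood at percentile 1.13 of all ratios.

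Apom and Apob were the only members past 1.4-fold between neighbouring groups in liver, and the sequence around each start is therefore shown, from RefSeq on GRCm38.p6, from 250 bases before the start to 50 after it. The window of Apob lies at chr12:7977427-7977726 on the plus strand and that of Apom at chr17:35131752-35132051 on the minus strand. Capitals mark TATAAA, the TATA box letters, searched on both strands.
Apob: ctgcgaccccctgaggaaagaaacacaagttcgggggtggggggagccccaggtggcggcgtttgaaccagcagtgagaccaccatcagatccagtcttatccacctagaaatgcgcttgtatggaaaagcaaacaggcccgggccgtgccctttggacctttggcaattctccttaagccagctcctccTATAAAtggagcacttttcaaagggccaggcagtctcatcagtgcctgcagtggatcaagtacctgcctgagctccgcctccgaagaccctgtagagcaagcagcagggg
Apom: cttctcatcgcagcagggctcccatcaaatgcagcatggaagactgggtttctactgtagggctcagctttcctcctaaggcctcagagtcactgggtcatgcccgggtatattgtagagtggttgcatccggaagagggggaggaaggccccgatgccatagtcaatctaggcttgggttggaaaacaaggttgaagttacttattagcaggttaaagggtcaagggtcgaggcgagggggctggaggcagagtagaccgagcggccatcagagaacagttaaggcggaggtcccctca
The Apob window held these letters 60 bases before the start, and the Apom window did not hold them. They occur in 13.6% of all 32851 such windows, so a match describes the window and nothing more. Of the members, 8 matched the promoter table.

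Apob has by far the longest transcript of the members, at 13934 bases in GENCODE vM1, while the other 8 measured members run from 487 to 2515 bases. In the same liver comparison the ratio of all genes moved with transcript length. The median log2 ratio was 0.13 for the 632 genes with transcripts under 1000 bases, 0.07 from there to 2000 bases, 0.03 up to 4000, -0.05 up to 6000, -0.15 up to 8000 and -0.27 for the 330 genes above 8000 bases. Of these 330 genes, 24.2% were over 1.4-fold lower, against 4.11% of the shortest, and 10 were over 2-fold lower. Apob had the eighth lowest ratio among them. Less the median of these long genes, its log2 ratio was -0.83, still past 1.4-fold but within 2-fold. Between the vehicle livers the medians by length stayed between -0.03 and 0.07. The part of length in the Apob value was not tested.

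**Figure D2:**
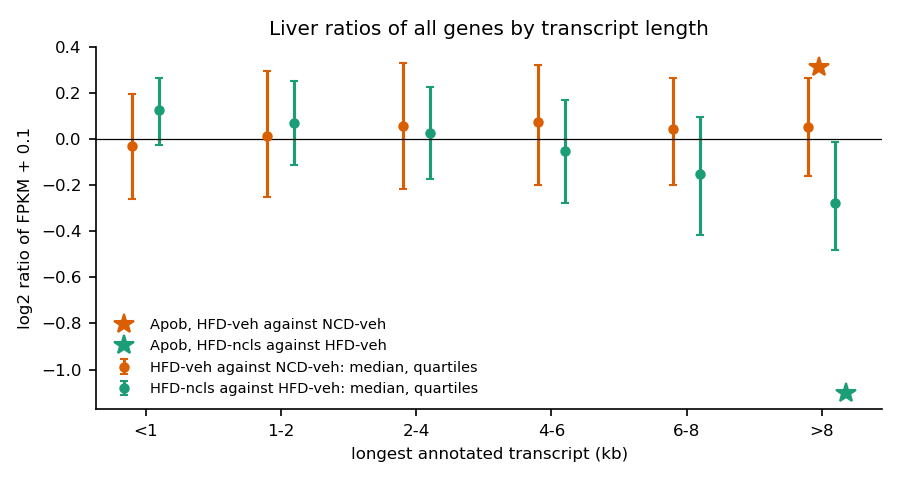
Liver log2 ratios (y axis) of all genes tested, by length of the longest annotated transcript in kb (x axis), as medians with quartile bars, for HFD-veh against NCD-veh and HFD-ncls against HFD-veh, with Apob as stars. The medians of HFD-ncls against HFD-veh run from 0.13 for the shortest to -0.27 for the longest transcripts, and Apob lies at -1.10.

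Apoa1, Apoc3, Apoa4 and Apoa5 form a cluster of 43.3 kb on chromosome 9 of mm9. Each of the 4 had more mRNA with ncls than with vehicle on HFD, without reaching 1.4-fold. That direction was not particular to the cluster. Outside it, Apom (log2 ratio 0.44), Apoc1 (0.08), Apoa2 (0.06) and Apoe (0.01) were also higher, and Apob alone was lower. The median over all genes was 0.02. The gene of Apoa1 lies at chr9:46036663-46038549, with 11392, 9999 and 13444 FPKM. The HFD-ncls library was thus the highest and HFD-veh the lowest, at a log2 ratio of 0.43. Apoc3 (chr9:46041016-46043719), an inhibitor of lipoprotein lipase and of remnant uptake, had 4401, 4105 and 4929 FPKM, with the same order and a log2 ratio of 0.26. Apoa5 (chr9:46076716-46080002), which promotes triglyceride hydrolysis, differed least, with 484, 493 and 549 FPKM and a log2 ratio of 0.16.

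Apoa4 (chr9:46048779-46051542), a satiety-linked apolipoprotein that liver makes when lipid loaded, had 133, 168 and 217 FPKM. The order was stepwise, with log2 ratios of 0.34 for HFD-veh over NCD-veh and 0.37 for HFD-ncls over HFD-veh. Over both steps it was 0.71, the only member over 1.4-fold higher in HFD-ncls than in NCD-veh liver, where 11.5% of all genes were higher and 9.46% lower. Apob was the only member over 1.4-fold lower there. Of the 5 intestinal epithelium genes, Fabp2 had 32.4, 102 and 71.5 FPKM in liver, while the other defining marker, Vil1, was at most 0.0403 FPKM and Cdh17 was at 0. Gm10680 overlaps Apoa4 on the opposite strand, and a strand setting of the quantification is not given in the sources used here.

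Apoe, Apoc1 and Apoc2 form the chromosome 7 cluster of mm9 together with Apoc4, and the measured pair hardly differed between liver groups. Apoe (chr7:20281458-20284515) had log2 ratios of 0.06 for HFD-veh over NCD-veh and 0.01 for HFD-ncls over HFD-veh. Apoc1 (chr7:20274833-20278007) had 10619, 12035 and 12738 FPKM, with log2 ratios of 0.18 and 0.08. Apoc2, the obligatory activator of lipoprotein lipase, was 1 of 68 symbols with no value in any library. Apoc4 lies inside the Apoc2 gene model on the same strand and was listed at 2160, 2187 and 2398 FPKM. Overlap of their exons was not examined, so whether the Apoc4 values hold reads of Apoc2 is not known. Apoa2 differed between the liver libraries by a log2 ratio of at most 0.13.

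**Figure D3:**
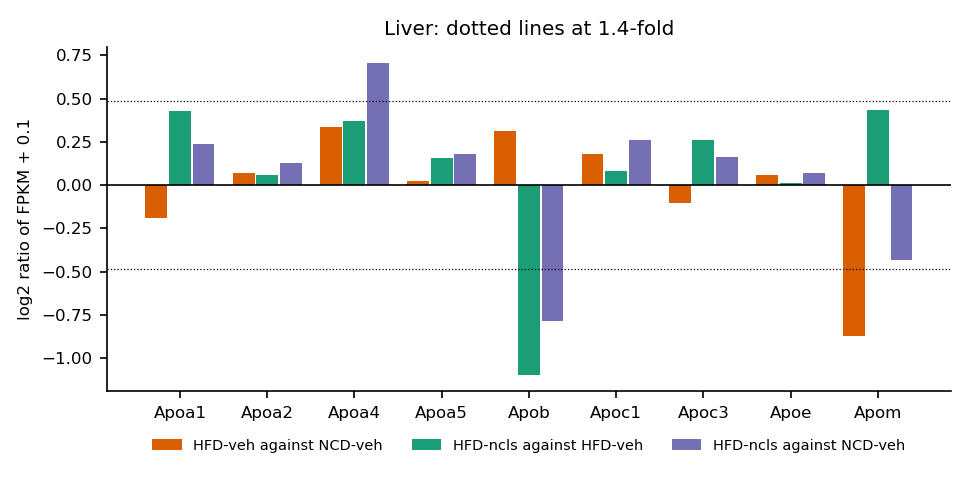
Log2 ratio of FPKM + 0.1 in liver (y axis) for each measured apolipoprotein gene (x axis) in the 3 comparisons of single libraries, with dotted lines at 1.4-fold. The bars of Apom for HFD-veh against NCD-veh, of Apob for both HFD-ncls comparisons and of Apoa4 for HFD-ncls against NCD-veh pass the lines.

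The genes that serve the apolipoproteins in liver were read from lists of 56 symbols, of which 55 were found and 52 passed the filter. In HFD-veh against NCD-veh, 9 (17.3%) were higher and 8 (15.4%) lower, beside 13.3% and 10.5% of all genes. With ncls against vehicle on HFD, 4 (7.69%) were higher and 9 (17.3%) lower, beside 6.88% and 8.07%. In HFD-ncls against NCD-veh, 11 (21.2%) were higher and 9 (17.3%) lower, beside 11.5% and 9.46%. The lists within these totals hold 7 to 17 genes each and are described by their members, against the same percents.

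Among the 12 genes of lipoprotein assembly and secretion, 4 were higher and 2 lower in HFD-veh than in NCD-veh liver. The shares of all genes were 13.3% and 10.5%. A1cf, the RNA-binding partner of the Apob mRNA editing enzyme, had 18.2, 30.3 and 10.1 FPKM. Mia2, which helps to load large cargo at endoplasmic reticulum exit sites, had 17.1, 27.9 and 13.7 FPKM. Both followed the order of Apob, higher in HFD-veh than in NCD-veh and lowest in HFD-ncls. They were the only genes of the list past 1.4-fold in HFD-ncls against HFD-veh, both lower. Their longest transcripts measure 3828 and 1629 bases. P4hb had the same order within 1.4-fold (445, 451 and 444 FPKM). The share of all genes with the order of Apob was not counted, so it is not read as particular to these genes. Mttp, the transfer protein that lipidates Apob, had 63.4, 88.2 and 75.6 FPKM and passed 1.4-fold in neither step.

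Sar1b, a GTPase of chylomicron and VLDL export, was higher in HFD-veh (142 against 78.5 FPKM), as was Dgat2, a triglyceride synthase that feeds VLDL (233 against 154 FPKM). Soat2, which makes cholesteryl ester for VLDL, had 16.3 FPKM in NCD-veh and 10.8 in HFD-veh, and Sort1, a sorting receptor for Apob particles, had 2.53 and 1.59 FPKM. Both were lower in HFD-veh. In HFD-ncls against NCD-veh, Apobec1, the editing enzyme itself, was higher (6.69 against 4.54 FPKM) and Tm6sf2, a VLDL lipidation factor, lower (17.0 against 24.4 FPKM).

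Among the lipoprotein receptors, 2 were lower in HFD-veh than in NCD-veh liver, where 10.5% of all genes were lower. Scarb1, the HDL receptor, had 91.2, 56.8 and 69.3 FPKM, and Sdc1, a proteoglycan receptor for remnants, had 90.7, 58.9 and 65.3. These 2 shared with Apom the order of lowest in HFD-veh, and the share of all genes with that order was not counted. Lsr, a remnant receptor, had 70.1, 66.1 and 105 FPKM and was higher in HFD-ncls than in either vehicle library.

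Of the 7 HDL genes passing the filter, Lcat alone was past 1.4-fold in HFD-veh against NCD-veh, with 460, 299.7 and 364 FPKM, again lowest in HFD-veh. Pltp, the phospholipid transfer protein, had 13.3, 14.1 and 34.1 FPKM and was higher in HFD-ncls only. Pon3, an HDL-borne lactonase, had 24.0, 28.6 and 16.5 FPKM and was lower in HFD-ncls.

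Among the lipases and regulators, Lipg, an endothelial lipase acting on HDL, had 2.83, 8.94 and 6.32 FPKM, higher in HFD-veh than in NCD-veh and lower again with ncls. Lpl, the lipase that Apoc2 activates, had 2.89, 1.59 and 1.88 FPKM. Angptl4, its inhibitor, had 98.8, 72.6 and 55.3 FPKM and was lower in HFD-ncls than in NCD-veh, and Gpihbp1, its endothelial anchor, was higher there (14.4 against 9.81 FPKM).

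Of the 17 transcription factors passing the filter, 2 were higher and 2 lower in HFD-veh than in NCD-veh liver. Among all genes 13.3% were higher and 10.5% lower, so these counts are near the background. With ncls on HFD, 1 was higher and 5 lower, beside 6.88% and 8.07% of all genes. Hnf4a, a general activator of apolipoprotein promoters, had 162, 105 and 131 FPKM in the order of Apom. Srebf1, the lipogenic regulator, had 13.3, 69.9 and 95.04 FPKM and Ppara, the fatty acid sensor, 34.3, 52.4 and 36.9. The repressor Nr0b2 was lower at each step, with 54.6, 35.8 and 22.6 FPKM.

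Nr1d1, the clock repressor that acts on Apoc3, had 19.5, 16.2 and 9.14 FPKM, and was lower in HFD-ncls, as were Rora (4.48 against 6.68 FPKM in HFD-veh, log2 ratio -0.57) and Nr5a2 (5.99 against 9.32 FPKM). Rora has a transcript of 10878 bases, and less the median of genes over 8000 bases its log2 ratio was -0.29, within 1.4-fold. Foxa2 was the factor higher in HFD-ncls, with 13.3 against 7.55 FPKM. Srebf2, the cholesterol regulator, was past 1.4-fold only in HFD-ncls against NCD-veh (12.7 against 8.36 FPKM).

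Outside liver, each member was set against its own liver level in the same group, beside 22 hepatocyte genes with liver values, since liver RNA in another sample would bring all of them at about the same percent. In WAT the hepatocyte list had medians of 0%, 0.0717% and 0.241% of the liver level. The number of list genes at 0 was 13, 1 and 0. Alb, the defining hepatocyte gene, had 4.79, 25.7 and 94.1 FPKM. In muscle the list stood at 0.000638%, 0.566% and 0%, with 11, 0 and 12 genes at 0 and Alb at 0.50, 224 and 0.329 FPKM. In BAT the median was 0% in all 3 libraries, 16, 16 and 13 genes were at 0, and Alb was at most 0.159 FPKM. Single list genes were higher in BAT, with Kng1 at 0.653% and 0.494% in HFD-veh and HFD-ncls and Hpd at 0.209% in NCD-veh.

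**Figure D4:**
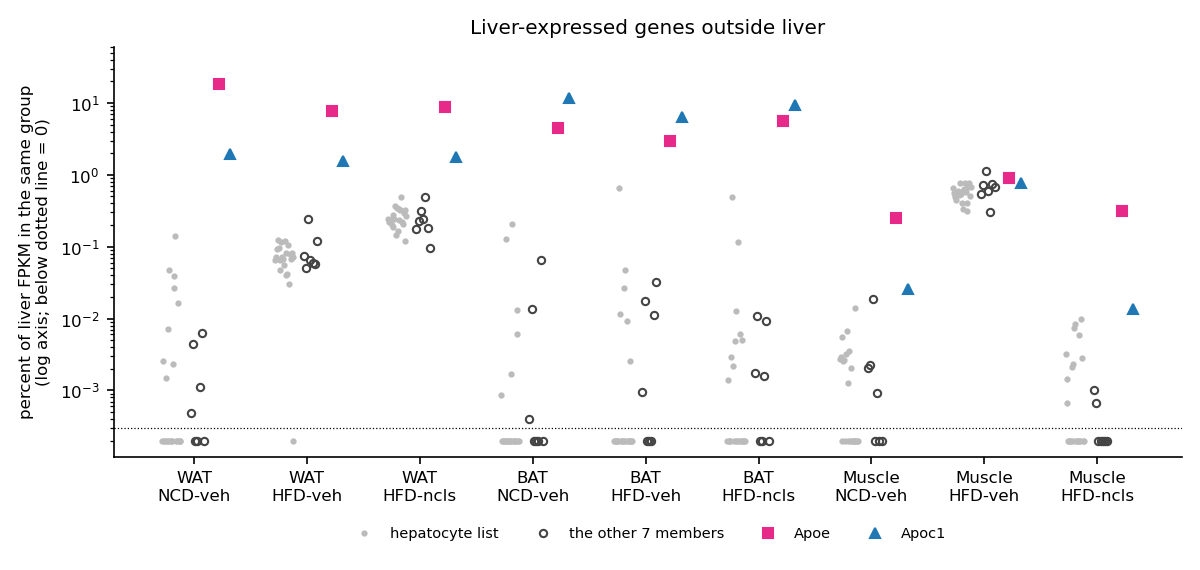
Level outside liver as a percent of the liver FPKM in the same group, on a log axis, for 22 hepatocyte list genes, 7 members, Apoe and Apoc1 in each of the 9 libraries, with values of 0 drawn below the dotted line. Apoe lies above every list gene in all 9 libraries and Apoc1 in all but HFD-veh muscle, where it lies inside the range of the list.

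Apoe in WAT stood at 18.4%, 7.80% and 8.78% of its liver level, where the highest list genes stood at 0.142%, 0.126% and 0.493%. Its level was 2520, 1115 and 1265 FPKM. NCD-veh was the highest of the 3, and the HFD libraries lay close together. The log2 ratio was -1.18 for HFD-veh against NCD-veh and 0.18 for HFD-ncls against HFD-veh. The median share of the hepatocyte list would give 10.3 FPKM of Apoe in HFD-veh WAT and 34.7 FPKM in HFD-ncls WAT.

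Apoc1 in WAT was lower than Apoe throughout, with 206, 186 and 225 FPKM. These were 1.94%, 1.54% and 1.76% of liver, and the log2 ratios were -0.15 and 0.27, both within 1.4-fold. Beside them, the 16 macrophage genes summed to 881, 1402 and 1744 FPKM in WAT. In HFD-veh against NCD-veh WAT 10 of the 16 were higher, 1 lower (Cd163) and 5 within 1.4-fold. Of the defining genes, Cd68 had 49.5 and 198 FPKM and Emr1 14.0 and 29.7 FPKM, both higher. Csf1r, also defining, had 57.2 and 64.8 FPKM, within 1.4-fold. The defining adipocyte gene Adipoq had 2849, 1692 and 1600 FPKM. Plin1, also defining, had 660, 532 and 493 FPKM, within 1.4-fold in HFD-veh against NCD-veh. Of the 8 adipocyte genes, 1 was higher in HFD-veh than in NCD-veh WAT (Lep, 300.2 and 1199 FPKM) and 3 lower, Adipoq among them. The part of either cell type was not tested.

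The other 7 members were near 0 in NCD-veh WAT, from 0 to 0.690 FPKM, and were higher stepwise along with the hepatocyte list. Apoa1 had 0.0561, 7.44 and 23.8 FPKM and Apoa2 0.690, 8.10 and 38.4 FPKM. Apoc3 had 0.274, 2.39 and 8.97 FPKM. Each was lowest in NCD-veh and highest in HFD-ncls. Apoa4, at 0.400 FPKM in HFD-veh WAT, was 0.239% of its liver level, above the highest list gene there. Apom differed little between the HFD libraries, at 0.264 and 0.290 FPKM. In HFD-ncls WAT it was 0.0964% of its liver level, below the lowest list gene (0.122%). As a percent of liver the 7 had a median of 0.000492%, 0.0648% and 0.227%, beside the list medians given above. Of the 5 members that passed the filter in HFD-veh against NCD-veh, 3 were higher and Apoe lower, where 16.3% of all genes were higher and 13% lower. In HFD-ncls against HFD-veh 6 passed, 4 were higher and none lower, where 6.39% and 1.28% of all genes were. Both directions together made 7.68% of all genes, and 3.71% with a filter of 5 FPKM or 12.3% with none. Those 4, Apoa1, Apoa2, Apoa5 and Apoc3, had log2 ratios from 1.67 to 2.23, and the 17 hepatocyte genes passing the same filter were all higher, with a median of 1.75. Only 6 of these 17 reached 1 FPKM in HFD-veh WAT. The rest, and Apoa5, passed the filter only through HFD-ncls WAT, where they were high. In HFD-veh against NCD-veh, Apoa1, Apoa2 and Apoc3 passed only through HFD-veh. The direction of such genes was fixed by the filter.

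Apob combined a low level in HFD-ncls WAT with a high percent of its liver level. Its level was 0.00320, 0.214 and 0.813 FPKM. The HFD-ncls value was 0.488% of the HFD-ncls liver level, above all but 1 of the 22 list genes (median 0.241%). Against the HFD-veh liver library it was 0.227%, with 16 of the list genes above it and a list median of 0.252%. The 6 other low members had medians of 0.205% and 0.238% against these liver libraries.

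In BAT, Apoc1 exceeded Apoe in each library, the reverse of WAT. Apoc1 had 1243, 767 and 1174 FPKM, or 11.7%, 6.37% and 9.21% of liver. HFD-veh was the lowest and the others lay close together, with log2 ratios of -0.70 for HFD-veh against NCD-veh and 0.61 for HFD-ncls against HFD-veh. Apoe had 613, 422 and 808 FPKM, or 4.47%, 2.95% and 5.61% of liver. It was also lowest in HFD-veh, with log2 ratios of -0.54 and 0.94.

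In HFD-veh against NCD-veh BAT, 4 members passed the filter, 3 of them lower (Apoc1, Apoc3 and Apoe) and none higher. Among all genes, 8.23% were lower and 9.34% higher. Apoc3 passed only through NCD-veh BAT, so its direction was fixed by the filter. In HFD-ncls against HFD-veh BAT 3 passed, with Apoe and Apoc1 higher and Apoa2 lower, where 2.25% were higher and 6.28% lower. Only 2 of these calls were left with a pseudocount of 1, without that of Apoa2. Apoa2 had 2.10, 2.89 and 1.85 FPKM and Apoc3 2.85, 0.457 and 0.458 FPKM. Apoa4 and Apoa5 were listed at 0 in all 3 BAT libraries.

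The macrophage genes summed to 64.1, 92.9 and 58.9 FPKM in BAT, highest in HFD-veh, where Apoe and Apoc1 were lowest. Of the 12 macrophage genes passing the filter, 6 were higher and 1 lower in HFD-veh than in NCD-veh, and in HFD-ncls against HFD-veh 1 of 13 was higher and 8 lower. Among those higher and then lower, Emr1, Trem2 and Gpnmb passed only through HFD-veh BAT, so their direction in both counts was fixed by the filter. Cd68, Mpeg1 and Tyrobp, also higher and then lower, were at 1 FPKM or more in each BAT library. The skeletal muscle genes were lower at each step over the same libraries, all 8 past 1.4-fold. Their part was not tested.

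In muscle, all 9 measured members were over 1.4-fold higher in HFD-veh than in NCD-veh, where 7.74% of all genes were higher and 5.52% lower, and with ncls on HFD all 9 were over 1.4-fold lower, where 8.46% were higher and 5.48% lower. With a filter of 5 FPKM the share of all genes past 1.4-fold in either direction was 8.67% in the first comparison (13.3% as given) and 9.26% in the second (13.9%). Both comparisons share the HFD-veh library, and 7 of the 9 passed the filter only through it. The hepatocyte list moved with them, 19 of 19 genes passing the filter higher and then 19 of 19 lower, with summed levels of 1.21, 354 and 0.720 FPKM. All 19 passed the filter only through the HFD-veh library, so the direction of both counts was fixed by the filter.

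Apoa2 had 0.348, 117 and 0.112 FPKM in muscle, and Apoa1 0.235, 54.4 and 0.137. Apoc3 had 30.2 FPKM in HFD-veh and was listed at 0 in the others, as were Apoa5 at 2.91 and Apom at 1.51. The HFD-veh library was far above the others for each. As a percent of liver the 7 low members had a median of 0.678% in HFD-veh muscle, with a list range of 0.312% to 0.781%. Apob was lowest of them at 0.308% and Apoa4 highest at 1.14%, with 1.10 and 1.92 FPKM.

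Length moved in this library too. In HFD-veh against NCD-veh muscle the median log2 ratio ran from 0.10 for transcripts under 1000 bases to -0.23 above 8000. Among the members, Apoc1, Apoa2 and Apoc3, the 3 shortest, had 0.760%, 0.723% and 0.736% of liver, and the longest, Apob, had the lowest percent. The order was not one of length throughout, since Apoa1 (1035 bases) had 0.544% and Apoa4 (1815 bases) the highest percent. The part of length was not tested.

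Apoe had 34.3, 130 and 45.5 FPKM in muscle, with log2 ratios of 1.92 and -1.51. In NCD-veh and HFD-ncls muscle, where the list was near 0, it stood at 0.25% and 0.316% of liver against a list maximum of 0.0139% and 0.00980%. Of the 7 low members, Apoa4 was above that maximum in NCD-veh muscle, at 0.0190%, and the others were not. In HFD-veh muscle Apoe stood at 0.911%. The excess of HFD-veh over the mean of the other muscle libraries was 90.2 FPKM, or 0.631% of liver, within the list's range of 0.312% to 0.781% for the same quantity. Less the list's median share, the log2 ratio to NCD-veh was 0.53. The highest list gene's share would give 111.6 of the 130 FPKM, so the 0.53 depends on the share taken. The separate comparison of HFD-ncls with NCD-veh gave 0.41, within 1.4-fold.

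Apoc1 had 2.76, 91.4 and 1.73 FPKM in muscle. In HFD-veh it lay at 0.760% of liver, inside the list's range, with 2 list genes above it. The median share of the list would give 68.1 of the 91.4 FPKM, and the highest list gene's share for 94.0. In NCD-veh and HFD-ncls muscle it was at 0.0260% and 0.0136% of liver, above every list gene. The separate comparison of HFD-ncls with NCD-veh gave a log2 ratio of -0.65. The 16 macrophage genes summed to 24.2, 26.9 and 37.9 FPKM in muscle.

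**Figure D5:**
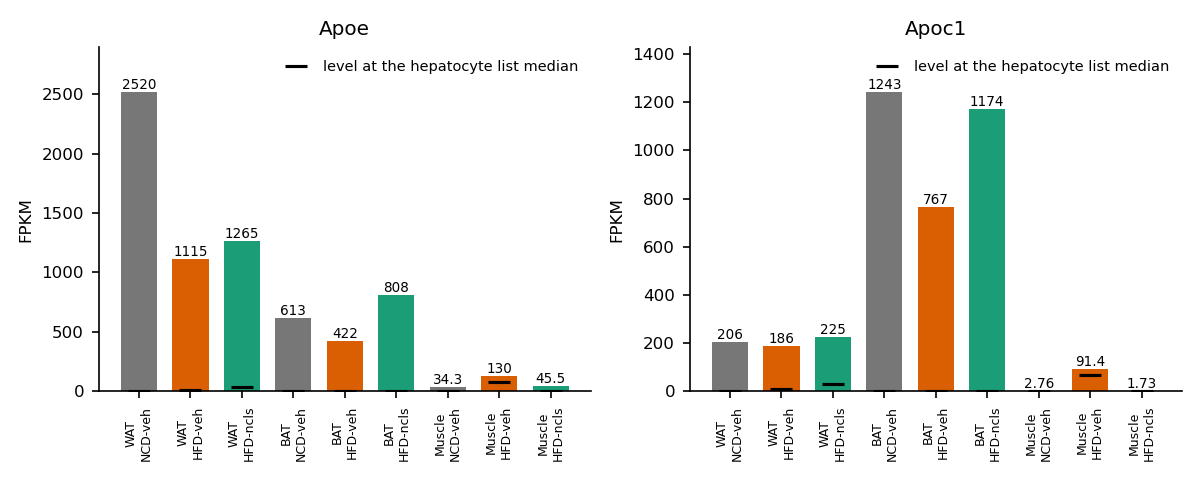
FPKM of Apoe and Apoc1 (y axis, from 0) in the 9 libraries outside liver, with a black dash at the level that the median percent of the hepatocyte list would give. In WAT and BAT the bars stand far above the dashes, and in HFD-veh muscle the dash lies at 80.8 of 130 FPKM for Apoe and 68.1 of 91.4 FPKM for Apoc1.

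Between organs, Apoe ranged over 13714 to 14408 FPKM in liver, 1115 to 2520 in WAT, 422 to 808 in BAT and 34.3 to 130 in muscle. The share of all genes with separate organ ranges was not counted, so separation is not read as particular to Apoe or Apoc1. The ratio of the WAT to the BAT median was 2.06. After rescaling all 12 libraries to a common median ratio it was 1.23, and the ranges of WAT (743 to 1697) and BAT (482 to 923) then overlapped, so the separation of these organs depends on the scaling. Apoc1 ranged over 10619 to 12738 FPKM in liver, 767 to 1243 in BAT, 186 to 225 in WAT and 1.73 to 91.4 in muscle. BAT and WAT stayed apart after rescaling, at 874 to 1358 and 124 to 146.

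The genes with profiles closest to Apoe over the 9 libraries outside liver, by the root mean square difference of centred log2 levels among 6788 genes, were Pgrmc1 (0.38), Cyb5 (0.41), Mgst1 (0.41), Slc9a3r1 (0.48) and Pde1a (0.53). For Apoc1 they were Adtrp (1.12), Elovl6 (1.19), H2-Q10 (1.27), Thrsp (1.28) and Pygl (1.37), all farther from it than those of Apoe. The genomic neighbours Apoe and Apoc1 differed by 2.04, which ranked Apoc1 4464th for Apoe and Apoe 166th for Apoc1. These distances describe 9 libraries that share organs, and HFD-veh muscle enters each of them.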

How the data were processed

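The 12 libraries were sequenced from total RNA on an Illumina instrument. TopHat 2.0.11 was run by the authors against mm9, and they deposited FPKM values per RefSeq gene from Cufflinks, whose version is not given in the sources used here. FPKM hold no counts, and no depth in reads was available, so only relative depth was read from low values of at most 0.05 FPKM. The strand setting is not given in the sources used here.

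Libraries were assigned to organ and group from their titles. Ratios are log2(FPKM + 0.1), which understates changes of low genes, for genes at 1 FPKM or more in at least 1 of 2 libraries. With 1 library per group no test was run. Named genes were the members, the listed pathway genes past 1.4-fold in a liver comparison (some of the receptor list are not reported here), list summaries with defining markers, and the 5 closest profiles to Apoe and Apoc1 among genes at 10 FPKM or more in at least 1 library outside liver. Lists of hepatocyte, macrophage, adipocyte, brown adipocyte, muscle, intestinal and pathway genes were used. The members and lists were chosen with earlier results of these data known. Saa1, Saa2, the transcript length groups, the excess in HFD-veh muscle and the Apob percents in HFD-ncls WAT were added after their values were seen. Positions and lengths come from GENCODE vM1 on the build equal to mm9. Scripts (Python 3.11.15, pandas 2.3.3) were tested on simulated data. Alternatives were pseudocounts, filters, rescaling, other liver denominators, and, added after seeing the data, correction for long transcripts and for the hepatocyte share.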

Additional observations from a re-analysis of the deposited data

Results flagged for a closer look

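Several members moved in opposite directions in different organs under the same comparison of single libraries, and none of these differences was tested. In HFD-veh against NCD-veh, muscle minus BAT was 5.70 on the log2 scale for Apoc1 and 10.65 for Apoc3. Muscle minus WAT was 3.10 for Apoe, and muscle minus liver was 4.88 for Apom. In HFD-ncls against HFD-veh, WAT minus muscle was 9.51 for Apoa1, 11.34 for Apoa2, 6.69 for Apoa5 and 10.11 for Apoc3. BAT minus muscle was 6.26 for Apoc1 and 2.45 for Apoe. All 10 involve the HFD-veh muscle library, in which the 22 hepatocyte genes stood at a median of 0.566% of their liver level. In muscle, Apoa1, Apoa2, Apoa5, Apoc3 and Apom passed the filter only through that library, so their direction there was fixed by the filter. The same holds for Apoc3 in BAT through NCD-veh and for Apoa5 in WAT through HFD-ncls. Apoc3, Apoa5 and Apom were listed at 0 in the other muscle libraries, so the sizes of their differences depend on the pseudocount.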

How the results depend on the processing

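In the 3 liver comparisons, Apob, Apoa4 and Apom kept every call and its direction under pseudocounts of 1 and 0.01 and under both rescalings. Apom in HFD-ncls against NCD-veh, within 1.4-fold as deposited, passed it at -0.49 with the median ratio and -0.52 with the 75th percentile, which made 3 members in place of 2 past 1.4-fold there. Ratios near 0 of Apoa2, Apoa5 and Apoe changed sign with rescaling. Less the median share of the hepatocyte list, muscle Apoe was 0.53 on the log2 scale in HFD-veh against NCD-veh and -0.12 in HFD-ncls against HFD-veh. Apoc1 was 3.07 and -3.68. These values depend on the share taken from the list. Rescaling over 12 libraries made the WAT over BAT ratio of medians 1.23 for Apoe and 0.103 for Apoc1. With a pseudocount of 1, Apoe kept 3 and Apoc1 kept 1 of their 5 closest genes, and BAT members past 1.4-fold in HFD-ncls against HFD-veh were 2 in place of 3. Of the 18 values of Apoe and Apoc1 outside liver, all were above the hepatocyte list median and 17 above its highest gene. The filter moved the share of all genes past 1.4-fold in WAT and muscle, with the values given above. The cause was not tested beyond what each setting removes. No paired analysis was possible because each organ and group had 1 library. No spread between animals can be had from these libraries, low FPKM rest on few reads of unknown number, and ratios of genes near 0 depend on the pseudocount.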
